A study of Mus musculus with 6 samples.

Results

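The 34 genes described here encode the enzymes and transporters of glycolysis (21 genes), the core of hypoxia signalling through hypoxia-inducible factor, HIF (6 genes), and enzymes of the tricarboxylic acid (TCA) cycle (7 genes). They were chosen by gene symbol with earlier results of these data known, by a rule that sets no measured value, and all 34 were found among the 23412 rows of the count table. RNA had been sequenced from splenic germinal centre B cells, sorted as B220+, GL7+ and Fas+ (CD95+), of mice injected with sheep red blood cells 10 days before. The DAF-TM mice were Cg1-cre(+/-);DAF-TM(fl/fl), with the cassette placed at R26, the Rosa26 locus, by the design text. The control mice were Cg1-cre(+/-) and, by the header of the table, DAF-tg(+/+), read here as lacking the cassette. Every mouse thus carried the Cg1-cre allele, which is switched on with transcription of the IgG1 constant region and acts in most germinal centre B cells. The labels used here state neither age nor sex, nor whether a library came from 1 animal or a pool, so p-values measure the spread between libraries, which may be technical.

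The DAF-TM group held 2 different libraries and the control group 3, because the columns of DAF-TM replicates 2 and 3 differed in 0 rows. That is less than sampling noise would give, and the pair entered every test as 1 sample, DAF-TM library 2. Total counts were 11280400 and 10684753 in the DAF-TM libraries and between 7257339 and 12783965 in the control libraries. Cd55, the mouse gene of the complement regulator DAF (decay accelerating factor), stood at 713 and 726 normalised CPM in DAF-TM cells and at 23.5 to 34.4 in control cells. Normalised CPM are counts scaled to a common library size corrected by TMM factors. The germinal centre genes Bcl6, Mef2b and S1pr2 exceeded 200 normalised CPM in every library, so the sorted cells carried the markers of their label. The sexes were mixed: Xist stood at 297 and 720 normalised CPM in DAF-TM libraries 1 and 2 and at 759, 2.63 and 2.86 in control libraries 1 to 3. DAF-TM library 1 held Xist together with reads of 4 Y-linked genes (289 normalised CPM in sum). Summed markers of natural killer cells were higher in DAF-TM libraries, at 116 and 69.2 normalised CPM against 23.3 to 41.9 in control libraries, with 7 of 10 called and 9 of 10 under 10 normalised CPM on average. Of 12 T cell markers 2 were called and 11 were under that level. Their sum was slightly lower in DAF-TM libraries, at 284 and 289 against 291, 316 and 293 in control libraries. Most of that sum came from the marker above that level, so it does not measure T cells. Cd3e, of the T cell receptor complex and under that level, was higher in DAF-TM libraries. It stood at 5.50 and 4.06 in DAF-TM libraries and at 2.12, 1.78 and 3.55 in control libraries. Calls were also made for 4 of 12 macrophage markers, 4 of 9 of naive or follicular B cells, 1 of 6 of plasma cells and 1 of 8 of dendritic cells. They were made for 0 of 11 germinal centre, 0 of 9 neutrophil and 0 of 9 erythroid markers, and for 0.410% of all genes tested (adjusted p under 0.05). Summed markers of macrophages, of naive or follicular B cells and of plasma cells overlapped between the groups. Those of neutrophils were lower in DAF-TM libraries, at 28.5 and 74.8 against 81.7, 78.7 and 225 in control libraries 1 to 3. Of the 9 neutrophil markers 6 were under 10 normalised CPM on average. Those of dendritic cells were higher in DAF-TM libraries, at 95.3 and 86.8 against 75.3 to 80.9 in control libraries. The part of these other cell types in the values below was not tested.

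Glycolysis turns glucose into pyruvate in the cytosol, and rapidly dividing lymphocytes pass much of that pyruvate on to lactate. HIF-1 is a transcription factor whose alpha subunit is marked for destruction by prolyl hydroxylases when oxygen is available and is then taken up by the VHL ubiquitin ligase. When oxygen is low it stays and raises glucose transporters, glycolytic enzymes and brakes on mitochondrial pyruvate use. The TCA cycle oxidises the remaining carbon in mitochondria. Hypoxic areas have been described within germinal centres, which is why these arms are of interest in these cells.

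None of the 34 genes passed the test for a difference between DAF-TM and control cells. Of all 18767 genes tested 77 were called, a background of 0.410%, at an adjusted p under 0.05 (edgeR quasi-likelihood test, Benjamini-Hochberg adjustment over all genes tested). By direction the background was 0.373% higher and 0.0373% lower in DAF-TM cells. With 0 of 34 called, the lowest adjusted p among them was 0.668, for Vhl. At an unadjusted p under 0.05 there were 3, Vhl, Slc16a1 and Hif1a, all with negative values, against a background of 5.74% of genes in either direction and 2.06% lower. DESeq2 and limma-voom also called 0, with 4 genes each at an unadjusted p under 0.05, the same 3 and Ldha. DESeq2 gave no adjusted p for Eno1 and Ldhb, which it thus could not call. The missing calls do not show that levels were equal, and the 95% intervals of the log2 fold changes say how far they could differ. For 21 of the 34 the interval lay within a 1.5-fold change in either direction, and for 32 within a 2-fold change. The 2 with wider intervals, Eno1 and Ldhb, had at most 20 counts in any library. Abundant genes have intervals of nearly 1 width, since a spread shared over all genes dominates each gene's own in this fit (1153 prior degrees of freedom in the median, beside 3 residual). In bulk samples fewer cells of a type and less RNA per cell cannot be told apart.

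**Figure D1:**
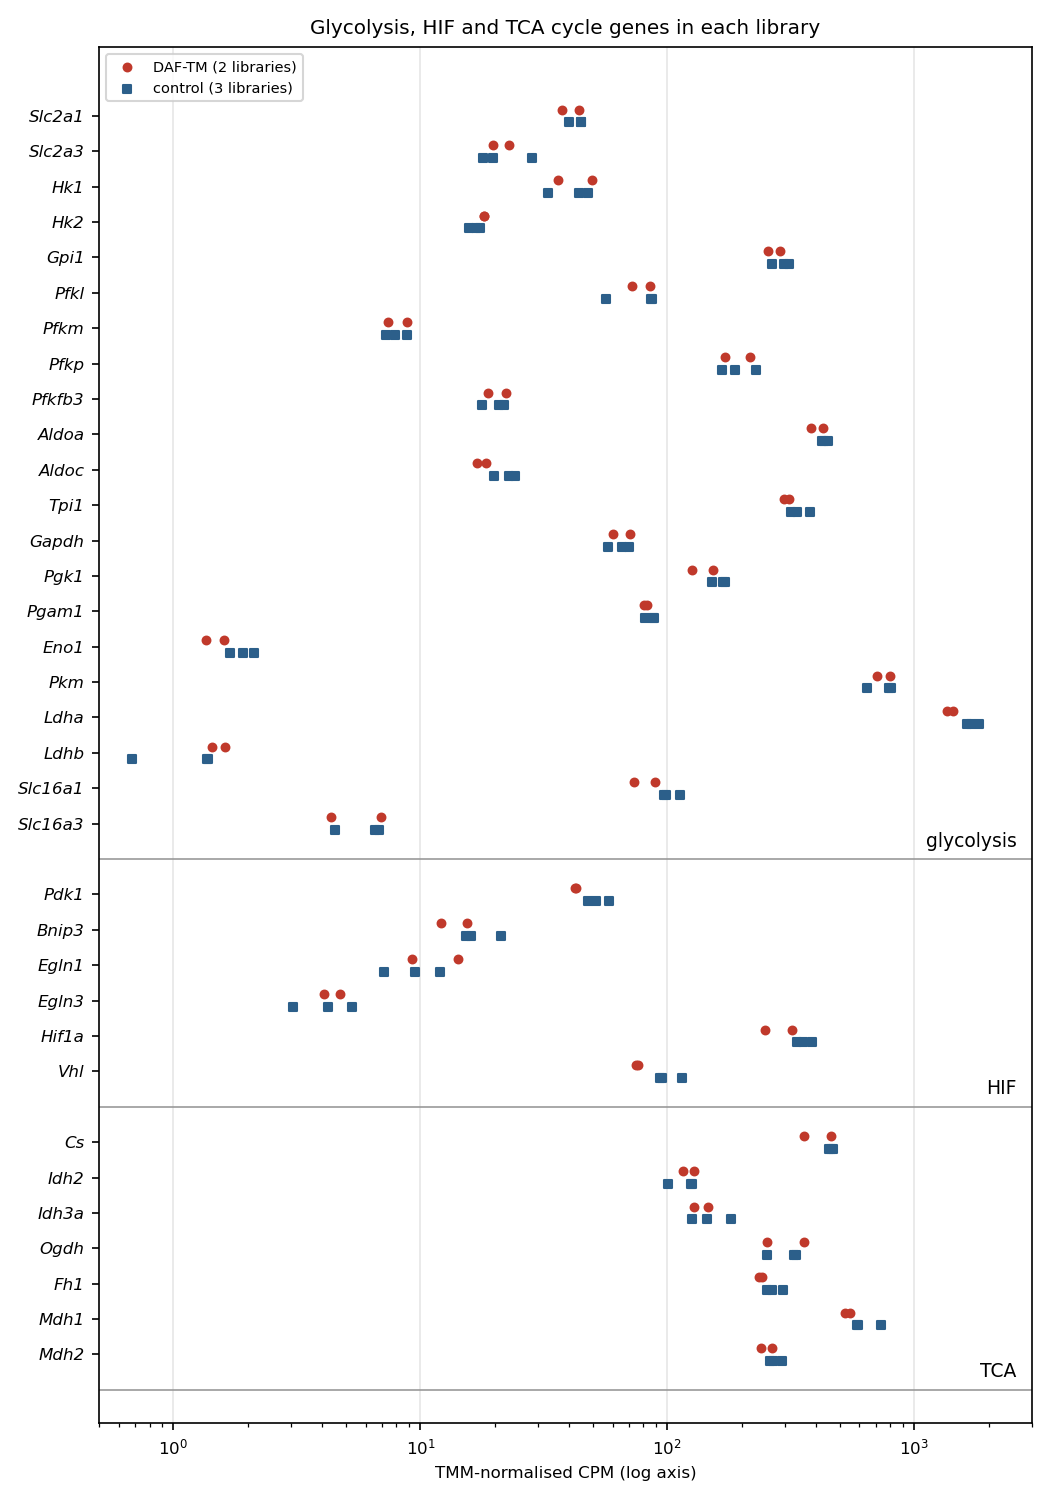
TMM-normalised CPM (log axis) of the 34 genes in each library, with the 2 DAF-TM libraries as red circles above the 3 control libraries as blue squares. Levels ran from about 1 for Eno1 and Ldhb to between 1361 and 1830 for Ldha, and for most genes the 2 groups overlapped.

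**Figure D2:**
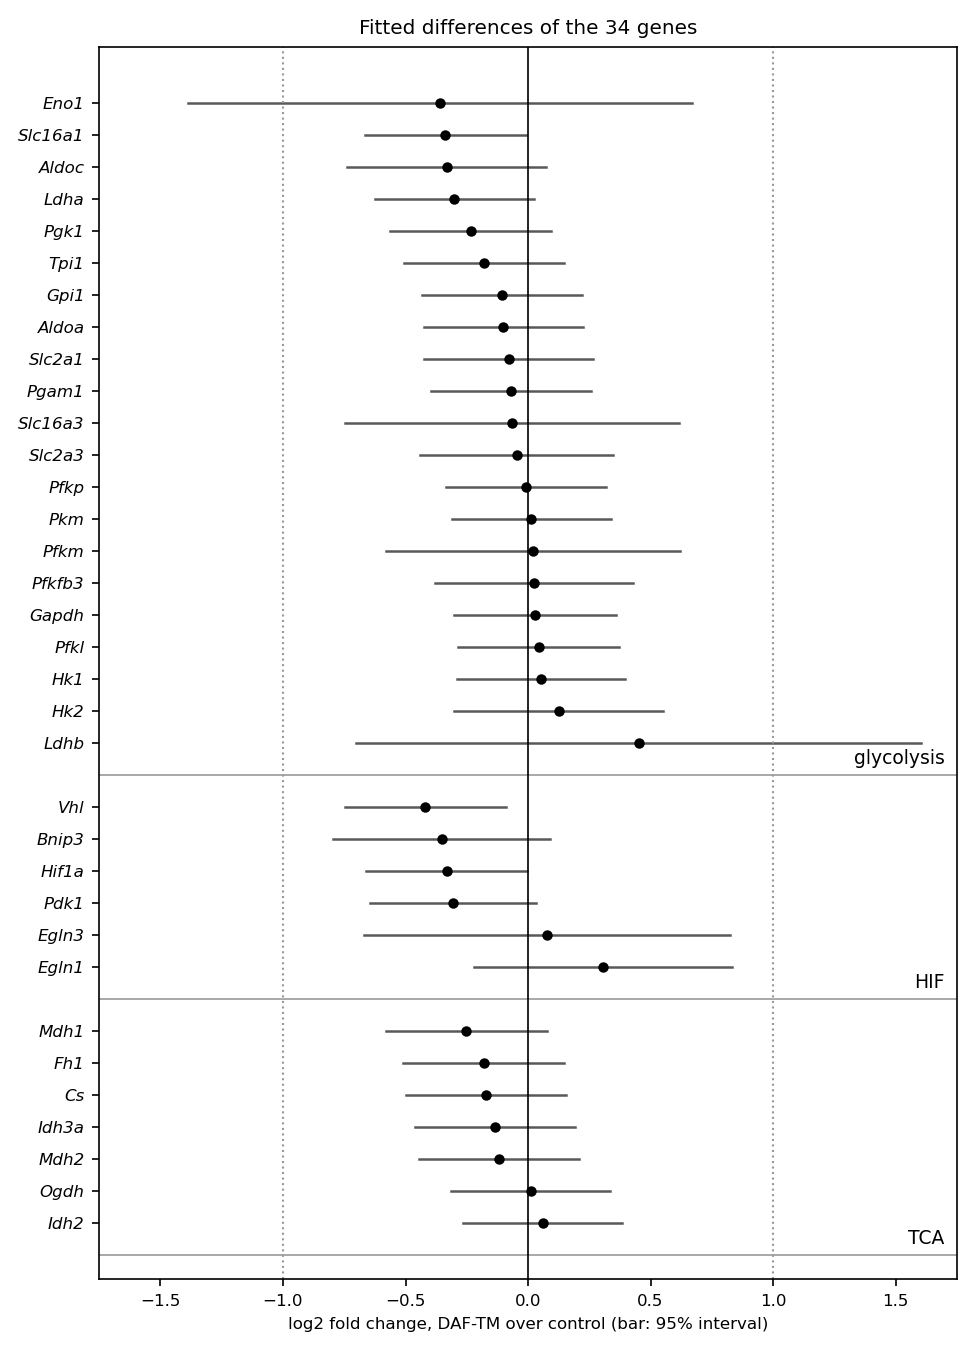
Log2 fold change (DAF-TM over control) of each gene, points, with its 95% interval, bars, and dotted lines at a 2-fold change. Of the 6 HIF genes 4 lay left of 0, and the bars of Vhl, Slc16a1 and Hif1a alone ended left of 0.

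More of the genes leaned down than up in DAF-TM cells, as did most abundant genes. Of the 34, 22 had negative log2 fold changes, against 46.1% of all genes tested. All 10 genes with no overlap and lower values in DAF-TM libraries are named in the arms below, and 2 had no overlap and higher values, Hk2 and Ldhb. The background over all genes tested was 9.02% lower without overlap, 11.3% higher and 20.3% either way. Level matters here: among the 9049 genes with a mean of at least 10 normalised CPM, 68.0% had negative values and 16.1% were lower without overlap. Of the 29 members at that level 20 had negative values and 9 were lower without overlap. Their median log2 fold change was -0.11, beside -0.08 over the 9049 genes.

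Genes of glucose uptake and its first phosphorylation gave 0 calls. Slc2a1 (GLUT1), the widely expressed glucose transporter, stood at 44.0 and 37.6 normalised CPM in DAF-TM libraries 1 and 2 and at 44.6, 40.2 and 44.6 in control libraries 1 to 3. Slc2a3 (GLUT3), a high-affinity transporter, stood at 19.8 and 22.9 in DAF-TM libraries and at 17.9, 28.3 and 19.6 in control libraries. Neither separated the groups, with log2 fold changes of -0.08 (95% interval -0.42 to 0.26) and -0.05 (-0.44 to 0.35). Per kilobase of exon Slc2a1 supplied 73.0% and 66.6% of the pair in DAF-TM libraries and 63.3% to 75.2% in control libraries. Hk1 and Hk2 encode the hexokinases that trap glucose as its phosphate. Hk1 stood at 49.8 and 36.1 normalised CPM in DAF-TM libraries and at 47.6, 32.9 and 44.1 in control libraries, so libraries of 1 group differed more than the groups did. Hk2, the isoform known to respond to HIF-1, stood at 18.04 and 18.2 in DAF-TM libraries and at 16.7, 15.7 and 17.5 in control libraries, higher without overlap by a log2 fold change of 0.12 (-0.30 to 0.55, adjusted p = 0.968). Hk1 made up 76.2% and 69.7% of the per-length hexokinase level in DAF-TM libraries and 70.8% to 76.7% in control libraries.

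The committed step of glycolysis, carried out by phosphofructokinase, gave 0 calls as well. Gpi1, the isomerase before it, averaged 270 ± 21.8 normalised CPM in DAF-TM cells and 291 ± 24.1 in control cells (SD, n = 2 and 3). The platelet-type subunit Pfkp averaged 194 ± 30.8 in DAF-TM cells and 195 ± 32.0 in control cells, and the liver-type subunit Pfkl 78.5 ± 9.12 in DAF-TM cells and 76.3 ± 17.0 in control cells. The muscle-type subunit Pfkm was low, at 8.10 ± 0.990 in DAF-TM cells and 7.97 ± 0.784 in control cells. Per length Pfkp gave 66.5% and 64.3% of the 3 subunits in DAF-TM libraries and 63.4% to 68.5% in control libraries, and Pfkl gave most of the rest. Pfkfb3, which makes the sugar phosphate that activates phosphofructokinase, averaged 20.5 ± 2.46 in DAF-TM cells and 20.2 ± 2.11 in control cells. The log2 fold changes of Pfkp, Pfkl, Pfkm and Pfkfb3 lay between -0.01 and 0.04. Control library 2 held the lowest Pfkl, at 56.7 normalised CPM against 86.6 and 85.5 in control libraries 1 and 3, and the lowest value of the 3 controls in 12 of the 21 glycolysis genes.

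In the splitting and payoff steps 3 enzymes were lower without overlap, by less than the test could call. Aldoc, an aldolase known mainly from brain, stood at 18.5 and 17.0 normalised CPM in DAF-TM libraries and at 24.2, 22.9 and 19.8 in control libraries (log2 fold change -0.33, -0.74 to 0.07, adjusted p = 0.944). Aldoa, the abundant aldolase, stood at 426 and 384 in DAF-TM libraries and at 448, 422 and 433 in control libraries, and supplied 97.4% of the per-length aldolase level in both DAF-TM libraries and 96.8% to 97.3% in control libraries. Tpi1, the triose phosphate isomerase, stood at 311 and 298 in DAF-TM libraries and at 379, 337 and 318 in control libraries (-0.18, -0.51 to 0.15, adjusted p = 0.949, and -0.10 without control library 1). Of these genes Aldoc and Tpi1 separated the groups and Aldoa did not. Pgk1, phosphoglycerate kinase, is the 1 member on the X chromosome and stood at 153 and 126 in DAF-TM libraries and at 169, 171 and 152 in control libraries (-0.23, -0.56 to 0.09, adjusted p = 0.945). Its lowest value belonged to DAF-TM library 2, which held Xist and 0 counts of the 4 Y-linked genes, while the female-like control library 1 stood at 169. Leaving out DAF-TM library 2 gave Pgk1 a log2 fold change of -0.10, and leaving out library 1 gave -0.39. Gapdh averaged 65.5 ± 7.66 in DAF-TM cells and 64.2 ± 6.26 in control cells, and Pgam1, phosphoglycerate mutase, 81.6 ± 2.04 in DAF-TM cells and 85.7 ± 3.68 in control cells (SD, n = 2 and 3). Pkm, pyruvate kinase, whose M1 and M2 splice forms a gene count does not separate, stood at 798 and 707 in DAF-TM libraries and at 789, 646 and 805 in control libraries.

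Several of these genes have near-identical copies, and counts per gene are then uncertain, since no source used here says how reads matching several genes were treated. Windows of 100 bases, the read length, were taken from the coding transcripts of each member and looked for in the transcripts of every other gene of GENCODE M21. For Pgk1 67.0% of the windows were also found elsewhere, for Gapdh 53.1%, for Pgam1 39.7%, for Eno1 39.5% and for Bnip3 31.6%. For the other members the share was at most 14.2%, for Pfkp, which shares them with Pitrm1, a neighbour on the opposite strand. Eno1, the enolase of most cells, was counted at 1.35 and 1.61 normalised CPM in DAF-TM libraries and at 2.12, 1.698 and 1.91 in control libraries, the third enzyme lower without overlap, on 14 to 20 counts a library. Gm5506, a synonym of Eno1b in RefSeq and the gene that shares most of these windows, held 244 and 290 counts in DAF-TM libraries and 194 to 286 in control libraries. Its normalised CPM were 22.0 and 24.5 in DAF-TM cells and 24.3 to 27.2 in control cells (log2 fold change -0.16, -0.54 to 0.22, adjusted p = 0.953). The low per-length levels of Eno1 and Gapdh beside Aldoa and Pkm (0.750, 42.9, 238 and 287 normalised CPM per kilobase in control cells) therefore do not rank these enzymes.

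Lactate production and export held the lowest p-values of the glycolysis arm. Ldha, the lactate dehydrogenase subunit that favours lactate, was the most abundant member, at 1437 and 1361 normalised CPM in DAF-TM libraries and 1830, 1702 and 1637 in control libraries. Every DAF-TM value lay under every control value, with a mean 0.812 times that of control cells (log2 fold change -0.30, -0.62 to 0.02, adjusted p = 0.906). It made up 34.7% and 36.2% of the summed glycolysis CPM in DAF-TM libraries and 37.7% to 40.5% in control libraries. Ldhb, the subunit common in oxidative tissues, was near the floor at 1.62 and 1.44 in DAF-TM libraries and 1.38, 0.679 and 1.36 in control libraries (log2 fold change 0.45, -0.70 to 1.60, and 0.15 without control library 2). Ldha supplied 99.8% of the per-length level in both DAF-TM libraries and 99.9% in the control libraries. Slc16a1 (MCT1), a carrier of lactate and pyruvate, stood at 89.3 and 73.6 in DAF-TM libraries and at 97.0, 113 and 98.6 in control libraries. This too was lower without overlap, 0.792 times the control level (-0.34, -0.66 to -0.01, adjusted p = 0.858). Slc16a3 (MCT4), the lactate exporter known as a HIF-1 target, was low, at 4.33 and 6.94 in DAF-TM libraries and 6.78, 4.501 and 6.55 in control libraries, with overlap. Leaving out DAF-TM library 2 gave Slc16a1 a log2 fold change of -0.20, and leaving out library 1 gave -0.49.

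**Figure D3:**
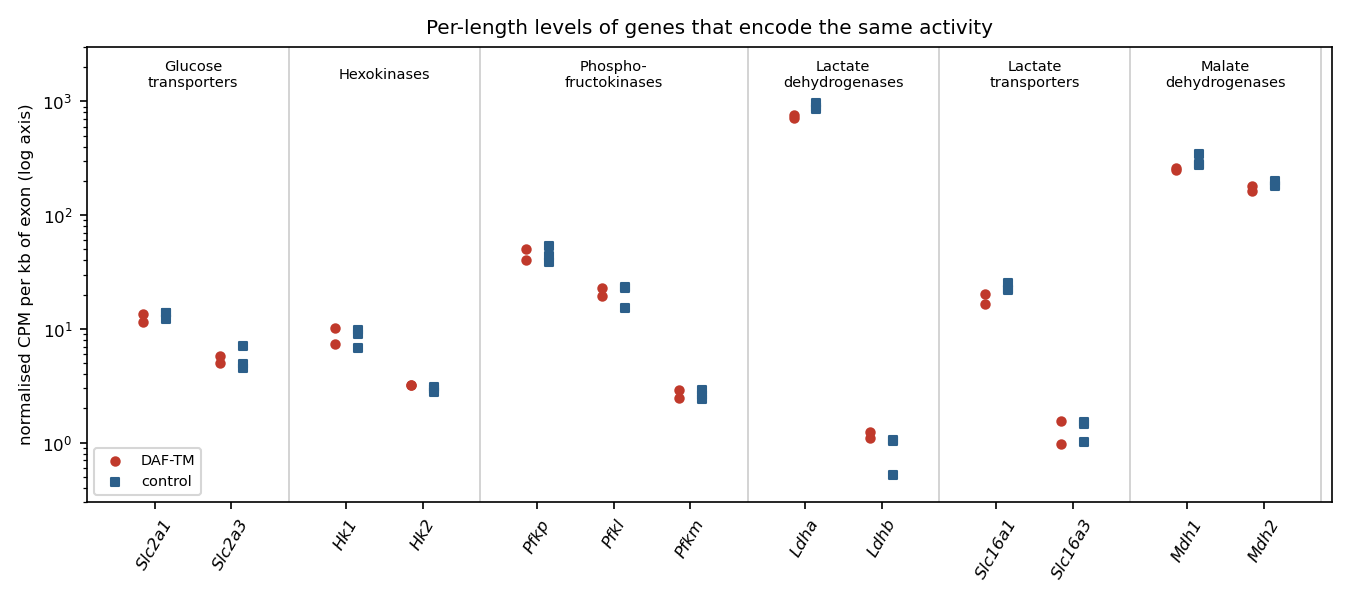
Normalised CPM per kilobase of exon (log axis) of genes that encode the same activity, with DAF-TM libraries (red circles) left of control libraries (blue squares). Within each family the order of the genes was the same in all 5 libraries, and Ldha stood far above Ldhb.

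The HIF arm had the most negative median of the 3 arms, -0.32, beside 0.03 over all genes tested and -0.08 over those of at least 10 normalised CPM. Lower without overlap were 3 of its 6 genes, against 9.02% of all genes tested and 16.1% of those at that level. The 27 further HIF pathway genes tested had a median of -0.03, with 5 lower and 4 higher without overlap. Vhl, the substrate-binding part of the ligase that degrades HIF alpha subunits, stood at 76.2 and 75.0 normalised CPM in DAF-TM libraries and at 95.02, 114 and 93.4 in control libraries. The DAF-TM pair lay close together and below all 3 controls, at 0.748 times their mean (log2 fold change -0.42, -0.75 to -0.09, adjusted p = 0.668). Hif1a, the oxygen-regulated subunit of HIF-1, stood at 319 and 250 in DAF-TM libraries and at 354, 385 and 335 in control libraries (0.794 times, -0.33, -0.66 to -0.00, adjusted p = 0.860). Pdk1, the kinase that holds pyruvate out of the TCA cycle, stood at 42.4 and 42.6 in DAF-TM libraries and at 47.9, 58.2 and 51.6 in control libraries (0.808 times, -0.31, -0.65 to 0.03, adjusted p = 0.911). Bnip3, a mitophagy receptor and HIF-1 target, stood at 12.1 and 15.4 in DAF-TM libraries and at 15.995, 21.1 and 15.3 in control libraries, with overlap (-0.35, -0.80 to 0.09, adjusted p = 0.945). The prolyl hydroxylases had positive values with overlap. Egln1 (PHD2), the main oxygen sensor, stood at 9.29 and 14.2 in DAF-TM libraries and at 12.0, 7.13 and 9.55 in control libraries, and its log2 fold change of 0.31 (-0.22 to 0.83, adjusted p = 0.949) was -0.03 without DAF-TM library 2. Egln3 (PHD3), which HIF-1 itself raises, stood at 4.06 and 4.74 in DAF-TM libraries and at 5.30, 3.06 and 4.23 in control libraries (0.08, -0.67 to 0.82).

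Single libraries weighed on these values. The HIF median was -0.21 without control library 2, which held the highest value of the 5 libraries for 4 of the 6 genes, Pdk1, Bnip3, Hif1a and Vhl. It was -0.25 without DAF-TM library 1 and -0.24 without DAF-TM library 2. For Hif1a the log2 fold change was -0.17 without DAF-TM library 2 and -0.53 without DAF-TM library 1. Bnip3 stood at -0.19 without control library 2, -0.20 without DAF-TM library 1 and -0.54 without DAF-TM library 2. Vhl lay between -0.46 and -0.32 over all 12 alternatives, in each of which its unadjusted p was under 0.05 and its adjusted p at least 0.537. A marker of the sorted population had a value of the same sign: Bcl6, the master regulator of germinal centre B cells, stood at 214 and 239 normalised CPM in DAF-TM libraries and at 287, 278 and 313 in control libraries. Its log2 fold change was -0.37 (adjusted p = 0.795), and its part in the HIF values was not tested.

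**Figure D4:**
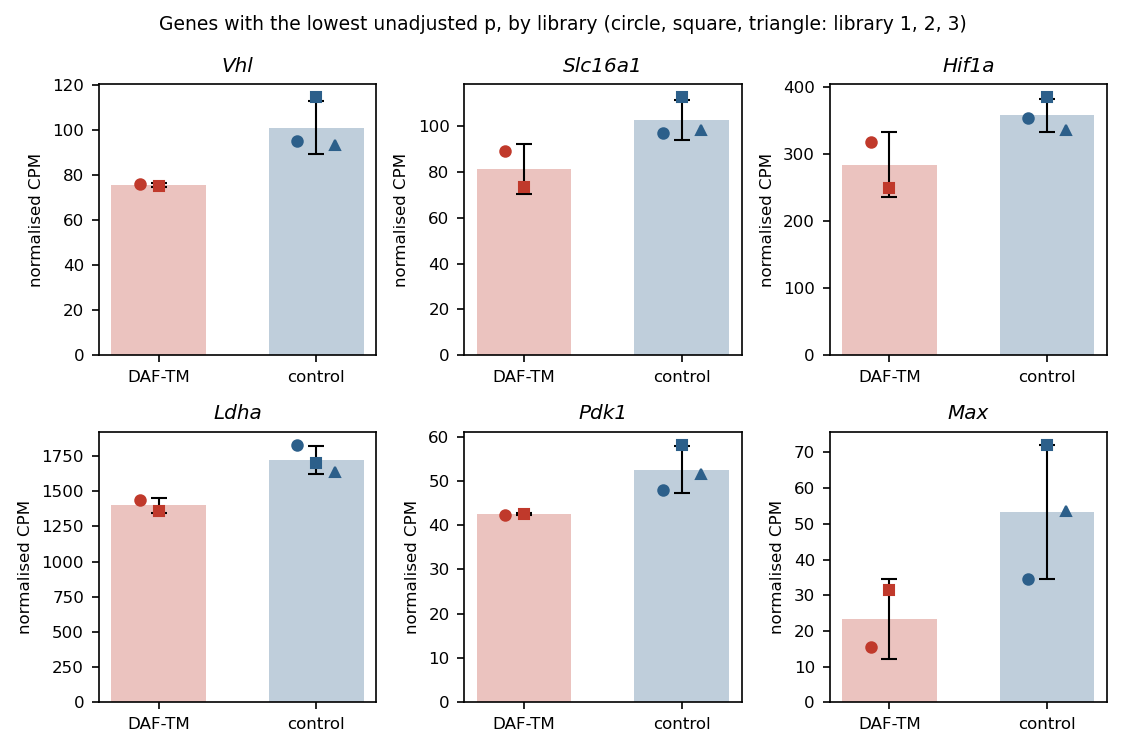
Normalised CPM by library (points), mean (bars) and SD (error bars) in DAF-TM and control cells for the 5 members with the lowest unadjusted p and for Max. For all 6 genes both DAF-TM libraries lay under all 3 control libraries.

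The proximal promoters of these 5 members are shown because the genes include reported HIF-1 targets (Ldha, Pdk1), its subunit Hif1a and its negative regulator Vhl. Each runs from 250 bases before to 50 bases after a transcription start (RefSeq, GRCm38.p6). Capitals mark ACGTG or GCGTG on either strand, the core to which HIF-1 can bind. CACGTG, the E-box that MYC and MAX bind, contains ACGTG and is marked with it. The stretches lie on chromosome 6 for Vhl (chr6:113623744-113624043), chromosome 3 for Slc16a1 (chr3:104638414-104638713), chromosome 12 for Hif1a (chr12:73907617-73907916), chromosome 7 for Ldha (chr7:46845554-46845853) and chromosome 2 for Pdk1 (chr2:71872974-71873273). All 5 read along the plus strand.

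Vhl: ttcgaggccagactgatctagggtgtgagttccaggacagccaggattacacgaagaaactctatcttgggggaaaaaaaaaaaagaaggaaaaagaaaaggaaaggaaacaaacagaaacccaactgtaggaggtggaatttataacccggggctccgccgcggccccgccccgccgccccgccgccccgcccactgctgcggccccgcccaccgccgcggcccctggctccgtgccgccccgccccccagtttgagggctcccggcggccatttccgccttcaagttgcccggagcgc
Slc16a1: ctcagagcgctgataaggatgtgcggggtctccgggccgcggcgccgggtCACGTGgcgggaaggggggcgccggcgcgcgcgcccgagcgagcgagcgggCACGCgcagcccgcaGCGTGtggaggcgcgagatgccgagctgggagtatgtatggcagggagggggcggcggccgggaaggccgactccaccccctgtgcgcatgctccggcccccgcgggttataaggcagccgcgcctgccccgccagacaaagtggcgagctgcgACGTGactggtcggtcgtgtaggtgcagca
Hif1a: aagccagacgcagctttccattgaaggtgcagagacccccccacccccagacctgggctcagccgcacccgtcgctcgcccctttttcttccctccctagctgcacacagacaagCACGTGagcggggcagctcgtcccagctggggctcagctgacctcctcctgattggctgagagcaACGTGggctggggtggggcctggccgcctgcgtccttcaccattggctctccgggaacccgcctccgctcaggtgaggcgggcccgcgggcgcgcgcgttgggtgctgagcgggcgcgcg
Ldha: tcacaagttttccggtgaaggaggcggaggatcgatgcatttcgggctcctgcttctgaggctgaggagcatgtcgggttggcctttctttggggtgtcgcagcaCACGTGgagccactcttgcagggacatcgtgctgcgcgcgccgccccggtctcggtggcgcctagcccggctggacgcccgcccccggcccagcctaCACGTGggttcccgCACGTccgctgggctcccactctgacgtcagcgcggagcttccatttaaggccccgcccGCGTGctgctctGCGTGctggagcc
Pdk1: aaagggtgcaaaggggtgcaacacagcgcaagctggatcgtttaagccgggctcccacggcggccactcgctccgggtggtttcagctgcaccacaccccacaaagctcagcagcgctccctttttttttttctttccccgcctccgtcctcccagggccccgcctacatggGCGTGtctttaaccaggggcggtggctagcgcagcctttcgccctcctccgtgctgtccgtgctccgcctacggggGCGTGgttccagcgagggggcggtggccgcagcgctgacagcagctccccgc

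Counting matches whose starts lay under 5 bases apart as 1, the Ldha stretch held 5, that of Slc16a1 4, those of Hif1a and Pdk1 2 each and that of Vhl 0. Ldha and Pdk1 have a further listed start each, with 2 and 0 matches. Of 50 promoters listed for 32 of the members 41 (82.0%) held at least 1 match, against 54.6% of 16976 promoters of genes tested and 64.4% of 8766 promoters of genes of at least 10 normalised CPM. Median GC content was 61.3% in the promoters of the members, against 58.7% and 61.0% in these 2 sets. The E-box CACGTG was in 9 of the 50 member promoters, against 8.7% and 10.4% of the 2 sets. Promoters of 1 gene are not independent, and Ogdh alone had 6 of the 50. Counted by gene, 28 of the 32 members (87.5%) held a match in at least 1 promoter, against 59.1% of 13628 genes tested. A match is a run of letters and says nothing about binding in these cells. Slc2a3 and Idh3a had no entry.

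The TCA arm showed small differences. Its 7 genes had 95% intervals within a 1.5-fold change, a median log2 fold change of -0.13 and 0 calls, and none had an unadjusted p under 0.05 with edgeR, DESeq2 or limma-voom. Mdh1, the cytosolic malate dehydrogenase of the malate-aspartate shuttle, stood at 548 and 527 normalised CPM in DAF-TM libraries and at 595, 734 and 589 in control libraries (-0.25, -0.58 to 0.08, adjusted p = 0.945, and -0.14 without control library 2). Fh1, fumarase, stood at 242 and 236 in DAF-TM libraries and at 266, 293 and 253 in control libraries (-0.18, -0.51 to 0.15, adjusted p = 0.949). These 2 were lower without overlap. Cs, citrate synthase at the entry of the cycle, stood at 459 and 359 in DAF-TM libraries and at 468, 461 and 450 in control libraries, so DAF-TM library 1 lay among the controls and library 2 below them. Idh2, the mitochondrial NADP-linked isocitrate dehydrogenase, averaged 122 ± 9.55 in DAF-TM cells and 117 ± 14.2 in control cells, and Idh3a, a subunit of the NAD-linked enzyme, 137 ± 12.4 in DAF-TM cells and 151 ± 28.3 in control cells (SD, n = 2 and 3). Ogdh, of the oxoglutarate dehydrogenase complex, stood at 358 and 254 in DAF-TM libraries and at 326, 254 and 332 in control libraries, a wider spread within groups than between them. Mdh2, the mitochondrial malate dehydrogenase, averaged 252 ± 18.3 in DAF-TM cells and 273 ± 16.4 in control cells.

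DAF-TM library 2 held the lower value of the DAF-TM pair for all 7 TCA genes and for 24 of the 34 members. Without it the TCA median was -0.05, and without DAF-TM library 1 it was -0.24. The glycolysis median of -0.07 was -0.04 without DAF-TM library 2, -0.19 without DAF-TM library 1 and 0.02 with upper-quartile factors, a setting that put the median of all genes tested at 0.10. Summed over the arm, glycolysis genes took 4138 and 3761 normalised CPM in DAF-TM libraries and 4685, 4200 and 4343 in control libraries, HIF genes 463 and 402 in DAF-TM libraries and 530, 589 and 510 in control libraries, and TCA genes 2146 and 1858 in DAF-TM libraries and 2192, 2310 and 2144 in control libraries. The glycolysis and HIF sums did not overlap and the TCA sums did. Without Ldha the glycolysis sums overlapped as well, at 2701 and 2400 in DAF-TM libraries and 2498 to 2855 in control libraries.

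**Figure D5:**
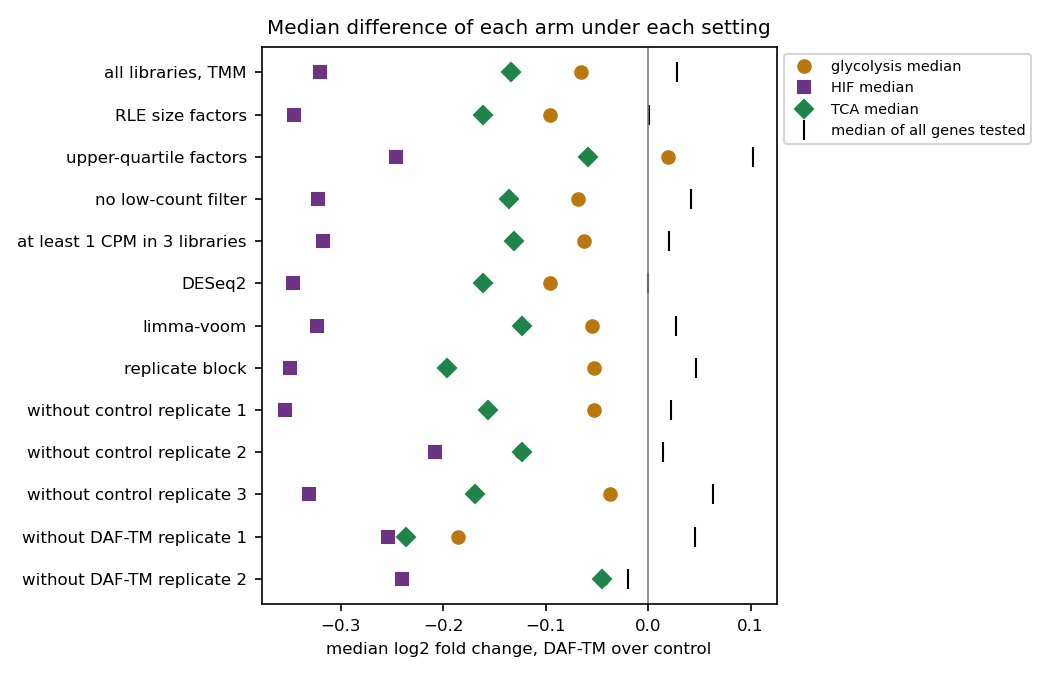
Median log2 fold change (DAF-TM over control) of each arm under each setting, with the median of all genes tested as a black tick. The HIF median stayed between -0.35 and -0.21, while the glycolysis median crossed 0 with upper-quartile factors.

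Levels per length kept nearly the same order in both groups. In the glycolysis arm Ldha led (738 normalised CPM per kilobase of exon in DAF-TM cells and 909 in control cells), followed by Pkm (290 and 287), Aldoa (222 and 238) and Tpi1 (173 and 195). The order of the 21 was the same in the 2 groups except that Pfkl and Slc16a1 changed places. The places of Pgk1, Gapdh, Pgam1 and Eno1 and, in the HIF arm, of Bnip3 are uncertain because of their shared windows. Hif1a led the HIF arm (52.2 in DAF-TM cells and 65.7 in control cells) and Egln3 closed it (1.65 and 1.58). Mdh1 led the TCA arm (253 in DAF-TM cells and 301 in control cells), with Ogdh and Idh2 changing places, at 68.8 and 69.98 in DAF-TM cells and 68.3 and 67.1 in control cells, neighbours whose difference was under their spread.

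The rest of these pathways gave 0 calls among 107 tested genes of 108 listed, with 2 at an unadjusted p under 0.05 with edgeR, 4 with DESeq2 and 1 with limma-voom, and 0 calls with either of these tools. Stc2 was too low to be tested, and DESeq2 gave no adjusted p for 12 of the 107. Of 23 further glycolysis isoforms and regulators 0 were called (median log2 fold change 0.15), and the lowest p belonged to Hk3, a hexokinase of myeloid cells, at 4.60 and 8.12 normalised CPM in DAF-TM libraries and 3.50, 3.31 and 5.18 in control libraries (0.69, adjusted p = 0.886). Dropping DAF-TM library 2 gave Hk3 a value of 0.22, and dropping library 1 gave 1.03. Of 13 genes of pyruvate entry into mitochondria 0 were called (median -0.11), led by Pdha1, the pyruvate dehydrogenase subunit, at 112 and 93.2 in DAF-TM libraries and 126, 139 and 117 in control libraries (-0.31, adjusted p = 0.888, and -0.19 without DAF-TM library 2). Of 20 further TCA cycle and linked genes 0 were called (median -0.12), led by Suclg2, the GTP-forming succinyl-CoA ligase subunit, at 63.7 and 58.4 in DAF-TM libraries and 88.2, 80.9 and 73.5 in control libraries (-0.41, adjusted p = 0.716). Pdha1 and Suclg2 were lower without overlap, and Hk3 overlapped.

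Of 8 pentose phosphate genes 0 were called (median -0.10), and Rpe, the epimerase of that pathway, had the lowest p, at 121 and 98.4 in DAF-TM libraries and 135, 143 and 115 in control libraries (-0.26, adjusted p = 0.945). Dropping DAF-TM library 2 gave Rpe a value of -0.11, and dropping library 1 gave -0.42. Of 27 further HIF pathway genes tested 0 were called (median -0.03). Their lowest p belonged to P4ha1, a collagen prolyl hydroxylase and HIF-1 target, at 21.3 and 19.2 in DAF-TM libraries and 15.5, 14.4 and 16.8 in control libraries, higher without overlap (0.38, adjusted p = 0.910).

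Of 16 regulators of glucose use 0 were called (median 0.06), and Max, the partner of MYC at E-boxes, had the lowest p. It stood at 15.5 and 31.4 normalised CPM in DAF-TM libraries and at 34.4, 72.1 and 53.5 in control libraries, so all controls lay above both DAF-TM libraries while libraries of 1 group differed widely. Its log2 fold change was -1.19 (-2.24 to -0.13, adjusted p = 0.829), and its call depended on the setting. Max was called in 6 of the 12 alternatives, with an adjusted p of 1.24e-07 without control library 1 and 1.75e-06 with RLE size factors, and not in the other 6, at 0.915 with DESeq2, 0.848 with limma-voom and 0.536 without DAF-TM library 1. Myc itself stood at 39.1 and 31.2 in DAF-TM libraries and at 26.0, 28.4 and 33.97 in control libraries, with overlap (0.26, adjusted p = 0.945).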

How the data were processed

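Per the labels' protocols, SMART-Seq v4 chemistry with oligo-dT priming made cDNA from 10 ng of RNA, read single-end over 100 nt. The table the authors deposited holds unnormalised whole-number counts by symbol. Per the submitters' processing notes HISAT2 and featureCounts were used, and the header names mm10. No source used here states the annotation, whether counting used strand, or how multiply matching reads were handled. The kit has no molecular identifiers, so amplification copies cannot be told from separate molecules in the counts.

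Here edgeR 4.0.16 (limma 3.58.1, R 4.3.3) fitted 5 libraries: TMM factors, filterByExpr, robust glmQLFit, two-sided glmQLFTest and Benjamini-Hochberg adjustment over 18767 genes. Intervals (95%) come from the same test. The biological coefficient of variation was 0.177. The test was checked on counts simulated from these libraries, with 50 genes changed at each fold. These were drawn at random from all but the lowest-level genes. It recovered 20% of the genes changed 1.5-fold and 42% of those changed 2-fold. At 4-fold it recovered 84% and at 8-fold 96%, and 3 of its 124 calls were false. Small changes would thus mostly be missed. Exon lengths and gene IDs are from GENCODE M21, promoters from RefSeq (GRCm38.p6). All 108 further pathway genes had a row, 1 under an older symbol, as did 87 of 91 markers. Spreadsheet dates replaced 27 symbols, at most 0.266% of counts.

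The members and lists were chosen with earlier results of these data known. All members, the lowest-p gene of each further list and Cd55 are named by rule, and any other gene was named with its values in view. The planned 6 libraries became 5, and 12 alternatives were run, among them DESeq2 1.42.0. Shared replicate numbers do not pair libraries, as no litter or day is named.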

Additional observations from a re-analysis of the deposited data

How the results depend on the processing

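With 2 DAF-TM and 3 control libraries, none of the 34 genes was called in any of the 12 alternatives, and 18 kept their sign in all. DESeq2 gave no adjusted p for 5459 of the 18767 genes, Eno1 and Ldhb among them, so these could not be called there. The count over all genes tested was 39 with upper-quartile factors, 32 with DESeq2, 49 with limma-voom and 14 to 118 when 1 library was left out (14 without DAF-TM replicate 1, 118 without DAF-TM replicate 2, 43 and 44 without control replicates 1 and 3), in place of 77. Of the further pathway genes 1, Max, was called with RLE factors, with no low-count filter and under the replicate block, and 0 to 1 when 1 library was left out, in place of 0. The cause was not tested. With the replicate number as a block 61 genes were called and 0 members. Control library 3 stood alone in its block, and the pairing of libraries by number has no other basis. Deviations from the group mean of DAF-TM and control library 1 correlate at r = -0.12 across genes, those of library 2 at -0.25. With 2 DAF-TM libraries their deviations mirror each other, so these correlations cannot show whether libraries are paired.

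With 1 library left out at a time, arm medians ran from -0.19 to -0.037 for glycolysis, -0.35 to -0.21 for HIF and -0.24 to -0.045 for TCA. Of 408 values for single genes 42 turned in sign, 0 of them called. With upper-quartile factors the log2 fold change was 0.041 for Slc2a3, 0.053 for Pfkp, 0.0029 for Pgam1 and 0.019 for Slc16a3. It was -0.0089 for Pfkm, -0.0037 for Pfkfb3, -0.012 for Pkm and -0.012 for Ogdh with RLE factors, -0.0091 for Pfkm, -0.0036 for Pfkfb3, -0.012 for Pkm and -0.012 for Ogdh with DESeq2, and -0.044 for Pfkm and -0.050 for Gapdh under the replicate block. Leaving out 1 library at a time gave ranges of -0.21 to 0.030 for Slc2a1, -0.17 to 0.19 for Slc2a3, -0.20 to 0.27 for Hk1, -0.14 to 0.16 for Pfkl, -0.11 to 0.13 for Pfkm, -0.19 to 0.14 for Pfkp, -0.10 to 0.14 for Pfkfb3, -0.10 to 0.14 for Gapdh, -0.085 to 0.096 for Pkm, -0.45 to 0.23 for Slc16a3, -0.034 to 0.57 for Egln1, -0.12 to 0.29 for Egln3, -0.036 to 0.14 for Idh2, -0.24 to 0.021 for Idh3a and -0.27 to 0.24 for Ogdh. The causes were not tested.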
